A study of Mus musculus with 6 samples.

Results

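The respiratory chain subunits encoded in the nucleus were followed in the mouse macrophage line RAW264.7. Members were the genes whose symbol starts with Ndufa, Ndufb, Ndufc, Ndufs, Ndufv, Sdh, Uqcr, Cox4i, Cox5, Cox6, Cox7, Cox8 or Atp5. Symbols that end in -ps were left out, as were 10 probe sets that the annotation gives to several genes. This gave 92 members of 22180 genes, with 34 in complex I, 4 in complex II, 7 in complex III, 17 in complex IV and 17 in ATP synthase. The remaining 13 carry the same prefixes without being subunits: 12 are assembly factors named Ndufaf or Sdhaf, and 1, Uqcrh-ps1, is a pseudogene. Where a gene had several probe sets, the one with the highest average across all 6 arrays stood for it.

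Cells grown in 10% serum were starved and then kept in medium with 2% serum, either with the IL-1 family cytokine IL-33 at 50 ng/ml (3 arrays) or with PBS (3 arrays). How long cells were treated is not stated in the labels. Directions are those of the titles. In the descriptions, the array names carry the letters IL on the PBS arrays and P on the IL-33 arrays, so every sign below would turn if the titles were exchanged. The labels do not say that replicates were cultured separately, so the p-values measure the spread among these 6 arrays only, and that spread may be technical. In bulk RNA of this kind fewer cells of a type and less RNA per cell cannot be told apart.

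The respiratory chain lies in the inner mitochondrial membrane. Complexes I and II take electrons from NADH and succinate, complex III passes them to cytochrome c and complex IV to oxygen, and the proton gradient built on the way drives ATP synthase. Most subunits are encoded in the nucleus and a few core subunits in mitochondrial DNA. In macrophages the chain is a known point of control, since inflammatory activation by bacterial products shifts cells from respiration to glycolysis and makes complex I and complex II a source of reactive oxygen.

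The promoters of the members hold sequence features that the choice of members did not use. A promoter window of 300 bases, from 250 before to 50 after the start of the gene, was found for 76 of the 92 members in RefSeq (GRCm38.p6). The letters GCGCA, any base and GCGC, the core of the binding motif of NRF1, a factor known for its role at respiratory chain genes, stood on either strand in the windows of 19 members, or 25%. They stood in those of 5.19% of all 27025 genes with a window and 7.17% of the 17491 that code for protein. CCGGAAG, the core that ETS factors such as GABP bind, was in 22 windows (28.9%), against 9.93% of all genes and 12.94% of coding genes. AAGATGGCG, which YY1 binds, was in 7 windows (9.2%), against 1.64% and 2.14%. The last letters of the ETS core, AAG, are the first of the YY1 letters, so those motifs can overlap. All are rich in G and C, and the base composition of the windows was not matched. A match is a description of letters and not a site.

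Shown here are the 250 bases before the start, 5′ to 3′ on the strand of the gene, of the 3 members with the smallest p and of Sdha. Sdha is a catalytic subunit whose log2 difference (IL-33 minus PBS) was 0.08, with an interval from -0.04 to 0.20 and groups that did not overlap. Capitals mark the NRF1 letters in Atp5k and Sdha and the ETS letters, read on the other strand, in Uqcrh and Atp5l. They lie at chr4:116075071-116075320 for Uqcrh, chr5:108434400-108434649 for Atp5k, chr9:44920743-44920992 for Atp5l and chr13:74350241-74350490 for Sdha, all on the minus strand of GRCm38.p6.
Uqcrh: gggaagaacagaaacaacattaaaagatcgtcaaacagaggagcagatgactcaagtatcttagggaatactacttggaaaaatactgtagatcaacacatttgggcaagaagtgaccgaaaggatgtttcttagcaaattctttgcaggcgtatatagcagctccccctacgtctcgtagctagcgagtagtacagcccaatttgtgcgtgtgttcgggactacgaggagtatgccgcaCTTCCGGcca
Atp5k: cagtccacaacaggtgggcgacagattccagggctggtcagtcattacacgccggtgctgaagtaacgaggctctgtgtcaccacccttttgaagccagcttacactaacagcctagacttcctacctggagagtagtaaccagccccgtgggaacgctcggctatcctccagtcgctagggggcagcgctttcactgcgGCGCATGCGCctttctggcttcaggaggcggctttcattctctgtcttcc
Atp5l: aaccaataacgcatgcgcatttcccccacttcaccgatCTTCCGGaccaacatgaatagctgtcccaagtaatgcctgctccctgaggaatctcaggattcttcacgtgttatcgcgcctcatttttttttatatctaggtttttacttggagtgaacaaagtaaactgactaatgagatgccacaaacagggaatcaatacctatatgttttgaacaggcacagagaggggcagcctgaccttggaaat
Sdha: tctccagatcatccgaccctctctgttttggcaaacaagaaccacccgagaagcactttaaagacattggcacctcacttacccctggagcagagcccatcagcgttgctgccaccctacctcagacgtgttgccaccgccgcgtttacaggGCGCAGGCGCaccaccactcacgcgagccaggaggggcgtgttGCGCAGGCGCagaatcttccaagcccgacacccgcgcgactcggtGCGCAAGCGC

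Members with and without the NRF1 letters had median log2 differences (IL-33 minus PBS) of 0.018 and 0.011, over 19 and 57 members. For the ETS letters the medians were 0.0 and 0.016, over 22 and 54 members, and for the YY1 letters 0.042 and 0.014, over 7 and 69 members. The motif groups thus lay within 0.05 of 0 on either side of the split.

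The comparison asked how expression differs with and without IL-33, and no member of the respiratory chain passed the test. With limma and Benjamini-Hochberg adjustment over 22180 genes, 0 of 92 members were called at 0.05, where 0.591% of all genes were (0.275% higher and 0.316% lower). At an unadjusted p under 0.05 (limma) 16 members passed, 9 higher and 7 lower in the IL-33 arrays. That is 17.4% of members, against 13.2% of all genes (6.42% higher and 6.74% lower). Among the more strongly expressed 11090 genes, whose mean reached the median of gene means and which hold 84 of the members, it was 17.8%. The 16 became 10, 10 and 6 without PBS replicate 1, 2 or 3 and 14, 14 and 9 without IL-33 replicate 1, 2 or 3. As shares of members these were 10.9%, 10.9%, 6.52%, 15.2%, 15.2% and 9.78%, against 10.8%, 11.8%, 11.7%, 13.3%, 12% and 9.96% of all genes in the same fits. With a prior variance that was trended on level and robust to outliers, 7 members passed after adjustment (7 of 92, where 4.51% of all genes were called). Uqcrh and Atp5k also passed when only the 11090 more strongly expressed genes were tested, of which 6.85% were called.

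The differences were small and the intervals bound them. The log2 difference of the 92 members had a median of 0.019, with 55 above and 37 below 0 (47.9% of all genes were above), and ran from -0.33 to 0.33. Over all genes the median was -0.005. The median size of a difference, whatever its sign, was 0.063 (log2) in the members and 0.073 over all genes. The 95% interval of the difference lay wholly within 1.2-fold either way (0.26 on the log2 scale) for 66 members, or 71.7%, against 50.2% of all genes and 63.8% of the 11090 more strongly expressed genes. It lay within 1.5-fold (0.58) for 90 members, against 96.7% of all genes. The 2 that reached beyond 1.5-fold were Atp5j2 and Sdhaf4. The smallest difference of any gene called was 0.33 on the log2 scale. The 3 values of each group did not overlap in 33 members, 18 higher and 15 lower, or 35.9%, against 20.3% of all genes (10.3% higher and 10.1% lower) and 29.9% of the 11090 more strongly expressed ones.

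**Figure D1:**
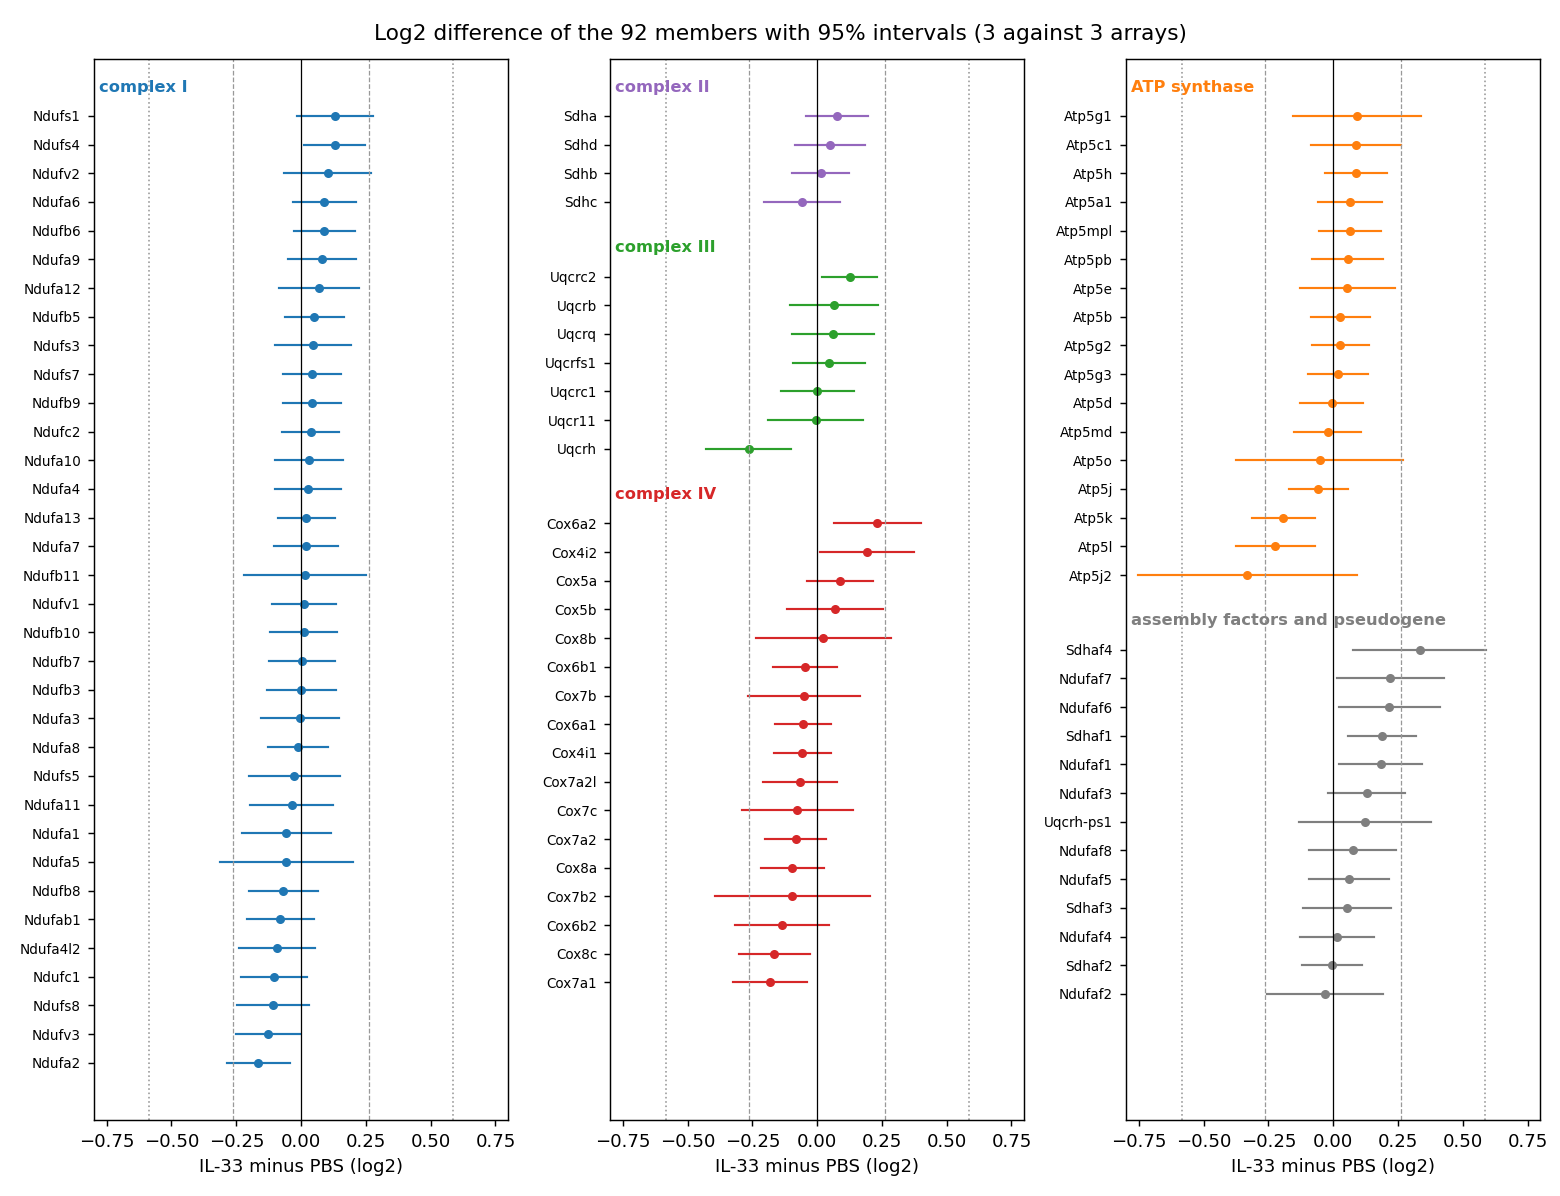
Points give the log2 difference (IL-33 minus PBS) of each of the 92 members and lines its 95% interval (limma, 3 against 3 arrays), by complex; dashed lines mark 1.2-fold and dotted lines 1.5-fold. Most intervals cross 0, 66 lie within the dashed lines, and those of Atp5j2 and Sdhaf4 reach beyond the dotted lines.

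Array by array the members shifted little. The median deviation of the 92 members from their own means over the 6 arrays was -0.015, -0.018 and 0.003 in PBS replicates 1, 2 and 3. It was 0.011, -0.007 and 0.013 in IL-33 replicates 1, 2 and 3 (log2). Among the 5 complexes, the furthest array medians were those of complex III, at -0.058 in IL-33 replicate 1 and 0.067 in IL-33 replicate 2, so that the widest gap was between arrays of the same group.

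**Figure D2:**
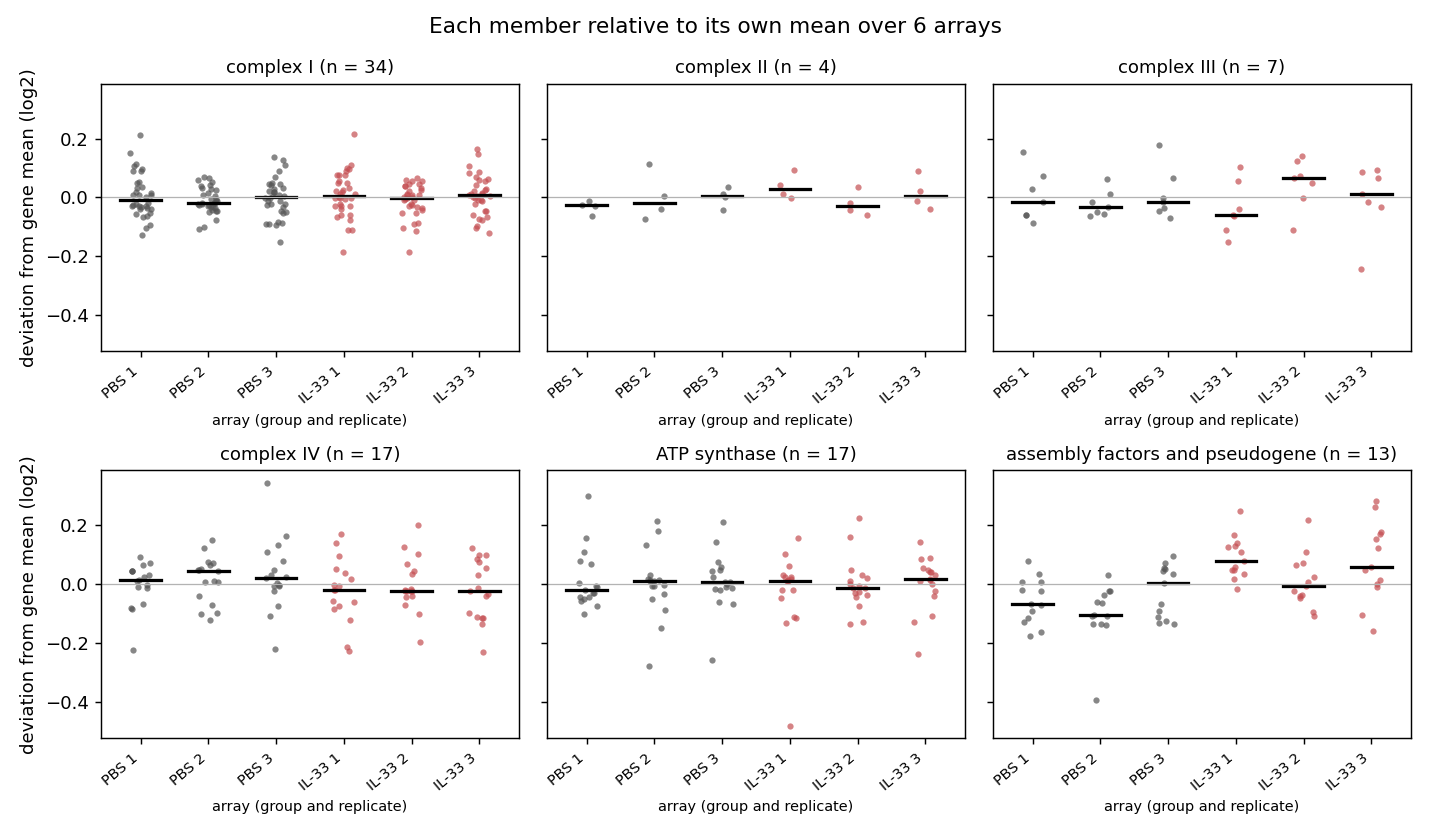
Each point is a member on 1 array, as its deviation in log2 from its own mean over 6 arrays, and bars are medians. The medians of complexes I and II and of ATP synthase stay within 0.03 of 0 on every array, while those of the assembly factors and the pseudogene run from -0.106 to 0.078.

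Complex I, the NADH dehydrogenase, had 34 measured members and a median log2 difference of 0.013, with 21 above and 13 below 0. All 34 intervals lay within 1.5-fold and 30 within 1.2-fold. The 6 nuclear core subunits measured here ran from -0.11 (Ndufs8) to 0.13 (Ndufs1). The other 28, taken as accessory subunits by symbol, had a median of 0.007, with 16 above and 12 below 0. They include Ndufa4 and Ndufa4l2, described below.

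Ndufs1, the largest core subunit, had log2 values of 9.37, 9.37 and 9.33 in the PBS arrays and 9.40, 9.48 and 9.58 in the IL-33 arrays. The groups did not overlap, but the lowest IL-33 array lay close to PBS, and the difference was 0.13 ± 0.06 (SE) with an adjusted p of 0.422 (limma). Ndufv1, which binds NADH and flavin, was at 10.61, 10.61 and 10.66 against 10.64, 10.58 and 10.69, with the groups mixed and a difference of 0.01 ± 0.05 (SE). Ndufs3, at the base of the peripheral arm, differed by 0.04 ± 0.06 (SE).

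The accessory subunit Ndufa2 had the smallest p of complex I. Its values were 9.91, 9.85 and 9.95 in PBS and 9.71, 9.73 and 9.78 in IL-33. All IL-33 arrays were below all PBS arrays. The difference was -0.17 ± 0.05 (SE), and limma gave an adjusted p of 0.243. Ndufs4, a subunit needed for assembly of the NADH-oxidising module and mutated in Leigh syndrome, went the other way, at 11.47, 11.52 and 11.51 against 11.66, 11.59 and 11.63. Its difference was 0.13 ± 0.05 (SE), without overlap, and its adjusted p 0.330 (limma). Ndufv3 differed by -0.13 ± 0.05 (SE), with an adjusted p of 0.358 (limma). Ndufa2 and Ndufs4 were the 2 complex I members that passed with the trended and robust variance, with adjusted p of 0.0368 and 0.0296 (limma).

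Ndufa4, first named as a complex I subunit and since placed with complex IV, differed by 0.03 ± 0.05 (SE), and its paralogue Ndufa4l2, a hypoxia-induced gene, by -0.09 ± 0.06 (SE). Ndufa4l2 was at 5.05, 4.91 and 4.88 in PBS and 4.87, 4.81 and 4.88 in IL-33, so the groups all but touched.

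Complex II, the succinate dehydrogenase that also belongs to the tricarboxylic acid cycle, had the narrowest range of the 5 complexes, over 4 genes. Its subunits had log2 differences between -0.06 and 0.08, and all 4 intervals lay within 1.2-fold. Sdha, the flavoprotein that oxidises succinate, was at 10.77, 10.76 and 10.76 in PBS and 10.84, 10.78 and 10.89 in IL-33. Its groups did not overlap, with a difference of 0.08 and an interval from -0.04 to 0.20. The iron-sulfur subunit Sdhb was at 9.50, 9.53 and 9.52 against 9.52, 9.56 and 9.51, and the groups were mixed. The membrane anchors Sdhc and Sdhd differed by -0.06 ± 0.06 and 0.05 ± 0.06 (log2, SE). Adjusted p for the 4 genes lay between 0.594 and 0.936 (limma).

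Complex III, the cytochrome bc1 complex, had a median of 0.046 over 7 members, with 5 above and 2 below 0. The median was 0.005 without IL-33 replicate 2 and 0.026 without PBS replicate 2. It held the member with the smallest p of all, Uqcrh, the acidic hinge protein that helps cytochrome c dock. Uqcrh was at 9.04, 8.95 and 9.06 in PBS and 8.85, 8.77 and 8.64 in IL-33. The groups did not overlap, and the difference was -0.26 ± 0.07 (log2, SE), or 1.2-fold, and the limma fit gave an adjusted p of 0.177. This was 0.0490 among the 11090 more strongly expressed genes and 0.0238 with the trended and robust variance (limma). Uqcrh-ps1, a pseudogene copy, was at 3.43, 3.53 and 3.64 against 3.72, 3.81 and 3.43, with a difference of 0.12 ± 0.11 (SE), and how far probes are shared between gene and copy was not tested.

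Uqcrc2, a core protein of the matrix side, had the tightest values among these, at 11.79, 11.80 and 11.78 in PBS and 11.91, 11.92 and 11.92 in IL-33. The SD within a group was 0.00745 in PBS and 0.00643 in IL-33 (log2, n = 3) and the difference 0.13 ± 0.05 (SE, from a variance shared across genes), with an adjusted p of 0.302 (limma). It became 0.0121, the smallest of any member, with the trended and robust variance (limma). Its partner Uqcrc1 was at 11.59, 11.56 and 11.67 against 11.55, 11.68 and 11.59, with the groups mixed. The Rieske iron-sulfur protein Uqcrfs1 differed by 0.05 ± 0.06, and Uqcrb and Uqcrq, small subunits near the quinone site, by 0.07 ± 0.07 and 0.06 ± 0.07 (log2, SE). Cyc1, the cytochrome c1 of the complex, lies outside the prefixes and differed by 0.02 ± 0.06 (SE).

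**Figure D3:**
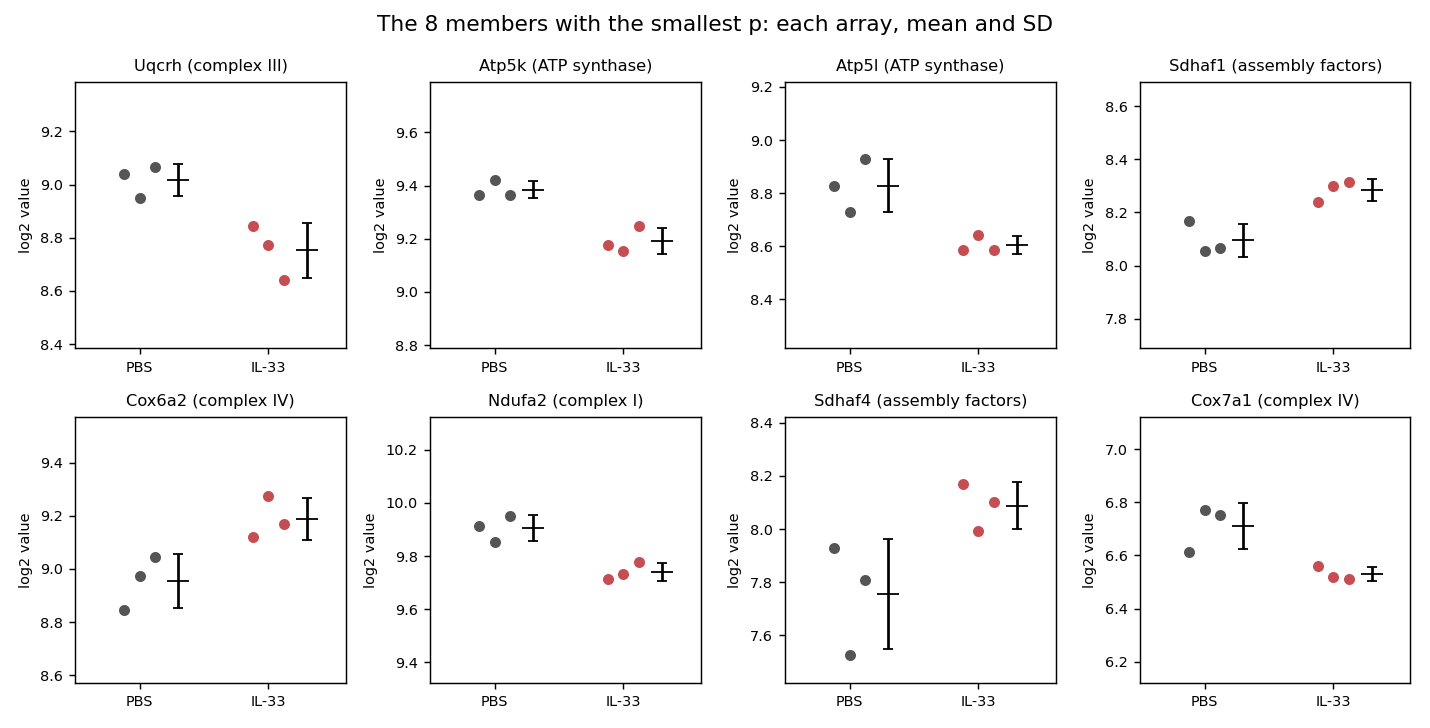
Log2 values of the 8 members with the smallest p, 1 panel each with a span of 1 log2 unit; points are arrays, and the bars beside them are mean and SD (n = 3). The groups do not overlap in any of the 8 panels, with 5 lower and 3 higher in IL-33, and the 8 were picked for small p.

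Complex IV, cytochrome c oxidase, was the class with the largest share of members below 0. Of 17 members 12 were below and 5 above, with a median of -0.058. The 9 subunit forms found in most tissues ran from -0.10 to 0.09, with 7 below 0, and 7 of the 9 intervals lay within 1.2-fold. Cox4i1, the largest nuclear subunit, was at 11.34, 11.34 and 11.30 in PBS and 11.28, 11.27 and 11.26 in IL-33, without overlap but with a difference of only -0.06 ± 0.05 (SE). Cox8a was at 12.19, 12.23 and 12.26 against 12.16, 12.15 and 12.08, a difference of -0.10 ± 0.05 (SE). Cox6a1 and Cox7a2 differed by -0.05 ± 0.05 and -0.08 ± 0.05 (log2, SE), also without overlap. Cox5a and Cox5b, peripheral subunits on the matrix side, differed by 0.09 ± 0.05 and 0.07 ± 0.08 (SE), and Cox6b1 by -0.05 ± 0.05 (SE). Cox7a2l, which joins complexes III and IV into supercomplexes, differed by -0.07 ± 0.06 (SE).

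The forms of complex IV subunits known for restricted tissues took all 4 of the smallest p in this complex, in both directions. These were 4 of 7 such forms, each at an unadjusted p under 0.05 (limma), against 13.2% of all genes. The 7 were set together by role after their values had been seen. Cox6a2, the heart and muscle form of subunit VIa, was at 8.85, 8.97 and 9.05 in PBS and 9.12, 9.27 and 9.17 in IL-33. The groups did not overlap, the difference was 0.23 ± 0.07 (log2, SE), or 1.18-fold, and the adjusted p was 0.235 (limma). It was 0.0466 with the trended and robust variance (limma). Cox4i2, the lung and hypoxia form of subunit IV, was at 6.99, 6.85 and 6.73 against 7.12, 6.997 and 7.03. The highest PBS array lay just below the lowest IL-33 array, with a difference of 0.19 ± 0.08 (SE) and an adjusted p of 0.350 (limma).

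Cox7a1, the heart and muscle form of subunit VIIa, was at 6.61, 6.77 and 6.75 in PBS and 6.56, 6.52 and 6.51 in IL-33, a difference of -0.18 ± 0.06 (SE) with an adjusted p of 0.268 (limma). Cox8c, a testis form, was at 4.29, 4.35 and 4.44 against 4.22, 4.20 and 4.16, a difference of -0.16 ± 0.06 (SE) with an adjusted p of 0.289 (limma). The testis form Cox6b2 and the muscle form Cox8b differed by -0.14 ± 0.08 and 0.02 ± 0.11 (SE). Cox8b turned to -0.02 with array weights. None of the 7 restricted forms had an interval within 1.2-fold, and 4 had a mean value below 6 (log2), with no detection call to say whether they were expressed.

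Markers of the tissues that use these forms were read beside them, and their part in these values was not tested. None of 8 striated muscle markers passed, adjusted or not, and their mean log2 level was 5.75 to 5.82 in the PBS arrays and 5.69 to 5.82 in the IL-33 arrays. Tnni2 of that list stood at 8.35 in PBS, above the others. None of 7 testis germ cell markers passed after adjustment, and their mean level was 5.91 to 5.95 against 5.85 to 6.04. An unadjusted p under 0.05 (limma) was found in 2, Prm1 at -0.18 and Ldhc at -0.15, against 13.2% of all genes. Of the 7 markers 3 were above 0 and 4 below, with Tnp1 at 0.19 and Tnp2 at 0.15. Odf1 of that list stood at 13.20 in PBS, unlike the others. The line itself carried its defining markers, with a mean level of 11.33 to 11.39 on all arrays over 10 macrophage markers, such as Lyz2 and Cd68. Fcgr3 of that list stood at 6.76 in PBS, below the others. None of the 10 passed after adjustment. At an unadjusted p under 0.05 (limma) 1 did, Adgre1, the F4/80 antigen, at -0.29 ± 0.06 (SE) without overlap. Of all genes 13.2% did so. The groups did not overlap in 4 of the 10, 1 higher and 3 lower. That compares with 20.3% of all genes and 29.9% of the 11090 more strongly expressed ones. Means of fibroblast, endothelial and epithelial, lymphocyte, and mast cell and basophil markers lay between 3.90 and 5.27, and none of these markers passed, adjusted or not.

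ATP synthase had a median of 0.028 over 17 members, with 10 above and 7 below 0, and leaving out PBS replicate 1 gave 0.014 and leaving out IL-33 replicate 3 gave 0.018. The catalytic head with its central stalk lay close to 0, as their 5 genes ran from -0.01 to 0.09, and all 5 intervals lay within 1.2-fold. Atp5b, the catalytic beta subunit, was at 13.02, 12.99 and 13.03 in PBS and 13.01, 13.05 and 13.07 in IL-33, and Atp5a1, the alpha subunit, differed by 0.07 ± 0.05 (SE). Atp5b lies near the top of the scale, since the highest value of an array was 13.62 to 13.66, and differences are compressed there. The 3 genes of the proton-carrying subunit c, Atp5g1, Atp5g2 and Atp5g3, differed by 0.09 ± 0.10, 0.03 ± 0.05 and 0.02 ± 0.05 (log2, SE). Among the 4 genes of the peripheral stalk, Atp5h had the smallest p, with a difference of 0.09 ± 0.05 (SE) and an adjusted p of 0.524 (limma).

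The larger differences of ATP synthase lay in small membrane subunits. Atp5k, subunit e, which holds dimers of the enzyme together, was at 9.37, 9.42 and 9.36 in PBS and 9.18, 9.15 and 9.25 in IL-33. The groups did not overlap, and the difference was -0.19 ± 0.05 (SE), or 1.14-fold, at an adjusted p of 0.187 (limma). Atp5l, subunit g, its partner in the dimer, was at 8.83, 8.73 and 8.93 against 8.59, 8.64 and 8.59, a difference of -0.22 ± 0.06 (SE) with an adjusted p of 0.211 (limma). Both passed with the trended and robust variance, with adjusted p of 0.0270 and 0.0453 (limma). Atp5j2, subunit f, had the lowest difference of any member, -0.33 ± 0.18 (SE), but its arrays overlapped, at 5.64, 5.56 and 5.32 against 4.86, 5.57 and 5.10, and IL-33 replicate 2 lay among the PBS arrays. It was -0.17 without IL-33 replicate 1 and -0.53 without IL-33 replicate 2. Atp5md and Atp5mpl, other small membrane subunits, differed by -0.02 ± 0.05 and 0.07 ± 0.05 (SE). These 5 genes were set together by role after their values had been seen.

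Most assembly factors among the members had higher values in IL-33. The 12 factors help to build complexes I and II without staying in them. Their median was 0.102 (log2), with 10 above 0, where 47.9% of all genes were above. An unadjusted p under 0.05 (limma) was found in 5, all higher, where 6.42% of all genes were so and higher. All 12 are among the 11090 more strongly expressed genes, of which 52.2% were above 0. Of those 11090, 1085 had such a p and were higher. With the pseudogene the median of the 13 was 0.123, and it was 0.072 without PBS replicate 1. The pseudogene had no p under 0.05. None passed after adjustment. The 79 subunits had a median of 0.011, with 44 above 0, and whether the 2 sets differ was not tested.

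Sdhaf1, which protects the iron-sulfur subunit of complex II during its maturation, was at 8.17, 8.05 and 8.06 in PBS and 8.24, 8.30 and 8.31 in IL-33. The difference was 0.19 ± 0.06 (SE), without overlap, with an adjusted p of 0.215 (limma), and the other probe set of the gene also gave 0.19. Sdhaf4, which acts on the flavoprotein Sdha, had the highest difference of any member, 0.33 ± 0.11 (SE), or 1.26-fold. Its values were 7.93, 7.53 and 7.81 against 8.17, 7.99 and 8.10, its PBS arrays were widely spread, and its adjusted p was 0.257 (limma). Ndufaf1, a factor of early complex I assembly, was at 9.88, 9.82 and 9.89 against 10.09, 9.92 and 10.13, a difference of 0.18 ± 0.07 (SE). Ndufaf6 differed by 0.22 ± 0.08 (SE), with IL-33 replicate 3 at 7.63 and the other IL-33 arrays at 7.38 and 7.36. Both had an adjusted p near the others, 0.321 and 0.328 (limma).

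Probe sets of the same gene mostly gave small differences of either sign. Of 10 members with more than 1 probe set, 4 had probe sets of opposite sign. These were Cox5b (0.07 and -0.16), Atp5e (0.05 and -0.13), Ndufa11 (-0.04 and 0.17) and Atp5g2 (0.03 and -0.01), all on the log2 scale, and none of these probe sets passed the test.

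Genes that work with the chain were read from lists, and none of their members passed at an adjusted p under 0.05 (limma). The 10 measured subunits encoded in mitochondrial DNA had a median of -0.002, with 5 above 0, none at an unadjusted p under 0.05, and the smallest p in ND6 (0.11 ± 0.06, SE) and ND4L (-0.07 ± 0.05, SE). Apart from ND6 their PBS means were at least 12.84 (log2), where the scale is compressed. Of 8 further complex I assembly factors 6 were above 0, with a median of 0.111, led by Nubpl, which delivers iron-sulfur clusters, at 0.29 ± 0.07 (SE), and the oxidoreductase Foxred1 at 0.14 ± 0.06 (SE). Of 6 complex III assembly factors 5 were above 0, with a median of 0.104, led by Lyrm7 at 0.40 ± 0.08 (SE) with an adjusted p of 0.101 (limma) and Bcs1l at 0.16 ± 0.05 (SE), which both act on the Rieske protein. The 21 complex IV assembly factors had a median of 0, with Coa6 at -0.28 ± 0.07 and Cox18 at 0.23 ± 0.05 (SE). The 4 factors and inhibitors of ATP synthase had a median of 0 as well, with Tmem70 at 0.13 ± 0.08 and Atpaf2 at -0.08 ± 0.08 (SE).

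Carriers and neighbours in metabolism gave medians between -0.002 and 0.083. The 21 electron carriers, ubiquinone synthesis genes and inner membrane carriers had a median of 0.024, with the ubiquinone enzymes Coq2 and Coq3 at 0.30 ± 0.07 and 0.23 ± 0.08 (SE). Biogenesis regulators and genes of mitochondrial DNA upkeep had a median of -0.002 over 22, with the coactivator Ppargc1b at -0.20 ± 0.06 (SE) and the termination factor family gene Mterf1b at 0.24 ± 0.06 (SE). Mterf1b had a mean of only 2.94 (log2), where the lowest value on the arrays was 2.02, with no detection call. The list of the tricarboxylic acid cycle had a median of 0.044 over 23 genes, with Suclg2 and Dld at 0.22 ± 0.05 and 0.21 ± 0.06 (SE). That list also holds genes outside the cycle itself, among them Pdha1, Pdhb, Dlat, Pdk1, Pdk2, Pdk3, Pdk4, Pdp1, Pcx and Acod1. The 15 genes of fatty acid oxidation had a median of 0.083, with 13 above 0, and Echs1, a hydratase of the pathway, at 0.27 ± 0.05 (SE) with an adjusted p of 0.0984 (limma), and Acadl at 0.15 ± 0.05 (SE).

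Genes of mitochondrial dynamics, import and mitophagy had a median of 0.037 over 27, with the mitophagy receptor Bnip3 at -0.52 ± 0.10 (SE) and an adjusted p of 0.0866 (limma), and the fusion protein Mfn2 at -0.16 ± 0.05 (SE). The 71 mitochondrial ribosomal proteins had a median of 0.041, with 44 above 0. Of these 71, 14 (19.7%) were at an unadjusted p under 0.05 (limma), 12 higher and 2 lower. That compares with 13.2% of all genes (6.42% higher and 6.74% lower). Among the 11090 more strongly expressed genes, which hold 69 of the 71, it was 17.8%, with 1085 higher and 894 lower. The smallest p among the ribosomal proteins were those of Mrpl13, at 0.36 ± 0.07 (SE) with an adjusted p of 0.0795 (limma), and Mrps35, at 0.22 ± 0.05 (SE).

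**Figure D4:**
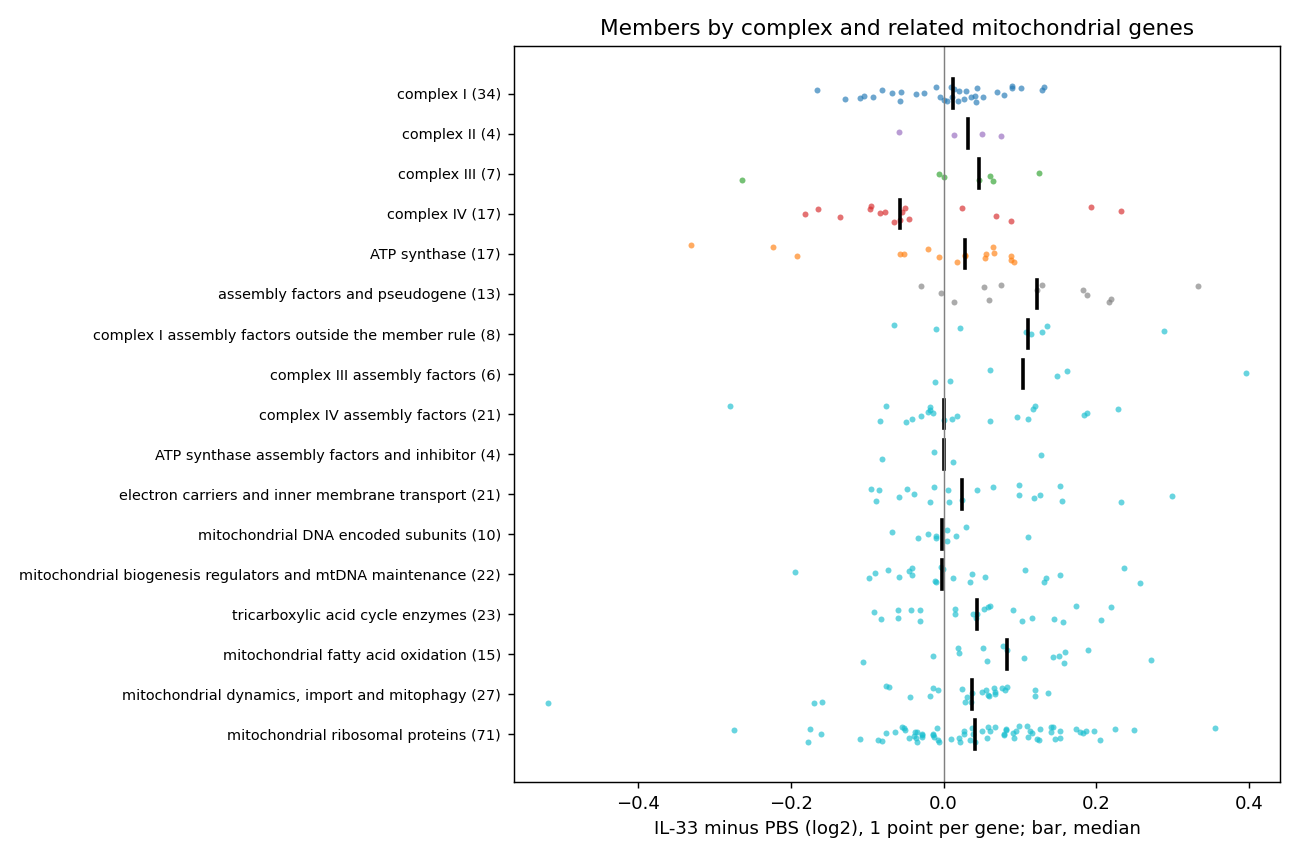
Log2 differences (IL-33 minus PBS) of the members by complex and of related mitochondrial gene lists, 1 point per gene with the number of genes in brackets; bars are medians. Complex IV has the lowest median (-0.058), the assembly factors with the pseudogene the highest (0.123), and Bnip3 is the point furthest to the left.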

How the data were processed

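Values were deposited by the authors as log2 signals of 41345 probe sets on 6 arrays, summarised with RMA per the submitters' processing notes, which name no version. RMA gives all arrays the same distribution, which hides any shift common to most genes and compresses differences at both ends of the scale. Of these, 23521 carry 1 gene symbol. All 92 members matched a RefSeq gene by Entrez ID.

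A model with 1 group coefficient was fitted to the unfiltered values of all 6 arrays (limma 3.58.1, R 4.3.3, lmFit then eBayes), with Benjamini-Hochberg adjustment over 22180 genes and a threshold of 0.05. The fit was tested on simulated data. Arrays give no counts, so their number limits the precision. Log2 differences had a median standard error of 0.058 in the members, against 0.073 over all genes. Across genes, arrays of a group correlated at 0.9972 to 0.9980 and arrays of different groups at 0.9967 to 0.9971.

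The members and lists were chosen with earlier results of these data known, so no test over a list was made. Named were any called member, the 4 with the smallest p in each class, core subunits, isoform pairs, the extremes and members whose probe sets differ in sign, and of each related list the 2 with the smallest p. Marker genes named beside the lists and grouping by role within a complex were chosen after values were seen. Alternatives changed the filter, scaling, probe set rule, variance model, array weights and arrays, or added the replicate number as a block. Python 3.11.15 with matplotlib 3.10.9 made the plots.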

Additional observations from a re-analysis of the deposited data

How the results depend on the processing

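No member was called in any of the 6 fits without an array, nor under the other alternatives apart from these. Testing only the 11090 more strongly expressed genes called 2 members, 1 each of complex III and ATP synthase. A trended and robust prior variance called 7, with 2 each in complex I, complex III and ATP synthase and 1 in complex IV. Over all genes 131 were called, against 296 and 760 with filters at the 25th percentile and the median of gene means, 1000 with the trended and robust variance, 17 over all probe sets and 15 to 83 without an array. Of 699 alternative values of 47 named members, 19 changed sign, and the cause was not tested.

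The median difference without an array ran from 0.015 to 0.033 for all members, 0.004 to 0.027 for complex I, 0.017 to 0.043 for complex II, 0.005 to 0.068 for complex III, -0.062 to -0.049 for complex IV, 0.014 to 0.035 for ATP synthase and 0.072 to 0.163 for the 13 assembly factors and pseudogene. That of ATP synthase was 0.009 with the mean of all probe sets. That mean gave -0.035 for Atp5e, -0.045 for Cox5b and 0.067 for Ndufa11, array weights gave -0.015 for Cox8b, and a further quantile normalization gave -0.006 for Uqcrc1. Signs also turned without an array in Atp5e (-0.011 to 0.127), Atp5g1 (-0.024 to 0.188), Atp5g3 (-0.002 to 0.039), Cox8b (-0.04 to 0.146), Ndufa11 (-0.099 to 0.011), Ndufa4 (-0.004 to 0.049), Ndufs3 (0 to 0.072), Ndufv1 (-0.016 to 0.041), Sdhb (-0.001 to 0.024) and Uqcrc1 (-0.036 to 0.034).

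Replicate numbers 1 to 3 occur in both groups, and no label says what they share. Deviations of same-numbered arrays correlated at 0.04, 0.057 and 0.019 across genes, so the numbers were not taken as pairs. With the replicate block 21 genes and 0 members were called. The array gives no detection calls, so whether the 9 members with a mean below 6 (log2) lie above background is not known.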
